A study of Mus musculus with 12 samples.

Results

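The 40 genes described here act in G2 and mitosis, from the cyclins and kinases that start cell division to the proteins that part the daughter cells. They were taken by name, as rows of the count files whose symbol is on a list of G2/M and mitosis genes, and all 40 were found once among the 35976 gene symbols counted. By role they were 9 cyclins, CDKs and their kinases and adaptors (Plk1, Cdk1, Ccnb1, Ccnb2, Ccna2, Aurka, Cdca3, Cks1b and Cks2), 4 subunits of the chromosomal passenger complex (Aurkb, Birc5, Cdca8 and Incenp), 7 genes of the spindle checkpoint and the APC/C (Bub1, Bub1b, Bub3, Mad2l1, Ttk, Cdc20 and Ube2c), 3 of the centromere and kinetochore (Cenpa, Cenpe and Cenpf), 6 of the spindle (Kif11, Kif2c, Nusap1, Tpx2, Hmmr and Tacc3), 6 of the central spindle and cytokinesis (Kif20a, Kif23, Prc1, Racgap1, Ect2 and Anln) and 5 of chromosome structure (Mki67, Top2a, Smc2, Smc4 and Ncapd2). The cells were haematopoietic stem cells (HSCs) of mice, sorted as Lin-ckit+scal1+ cells, which lack lineage markers and carry the receptor c-Kit and the surface protein Sca-1. Such a gate also takes in multipotent progenitors. There were 6 groups of 2 libraries. They were stimulated cells of 2-month-old animals labelled KO for CD38 or WT, kept in culture with cytokines for 24 hours, freshly isolated cells of 24-month-old animals (old), KO or WT, and freshly isolated cells of 2-month-old animals (young), KO or WT. Only young cells were stimulated. The series asked how CD38, a membrane enzyme that consumes NAD, acts on HSCs at rest, on stimulation and in age. No label ties a library to an animal, so the 2 libraries of a group may or may not be separate animals, and the p-values below measure only the spread between these samples.

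HSCs of an adult animal are mostly out of the cell cycle, and cytokines in culture bring them into it. Cells that go from DNA replication to division switch on a shared set of genes, held low in resting cells by the DREAM complex and switched on by B-Myb and FoxM1 together with NF-Y. The products condense the chromosomes, build the spindle, check that every chromosome is attached and then part the daughter cells, after which the anaphase-promoting complex (APC/C) marks many of them for destruction. Because their transcripts peak together late in the cycle, their summed level in a bulk sample is often read as a measure of dividing cells. Here each library was a bulk sample, and fewer cells in G2 or mitosis cannot be told apart from less RNA of these genes per cell.

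The libraries held 2692245 to 3249721 counts in stimulated, 3796591 to 5164720 in old and 1600155 to 1963635 in young fresh cells. Each old library was thus deeper than each young fresh one. At least 1 count was found for 9116 to 10231 genes in fresh and 13163 to 13450 in stimulated libraries. At an equal depth of 1600155 counts the ranges were 9049 to 9954 and 12719 to 12981 genes. Fewer genes were thus found in fresh cells at equal depth too, and the part of this in the results below was not tested. A count was worth 0.207 to 0.627 CPM (the count scaled to a common library size, with TMM). Kit, the receptor used in the sort, was found in every library at 190.6 to 423 CPM, and Ly6a, which encodes Sca-1, at 39.3 to 177 CPM. Cd38 itself had 3.59 and 2.32 CPM in stimulated KO and 0.998 and 8.58 CPM in stimulated WT, 13.2 and 19.9 CPM in old KO and 74.4 and 41.4 CPM in old WT, and 62.8 and 31.9 CPM in young fresh KO and 17.6 and 24.6 CPM in young fresh WT cells. Both young fresh libraries labelled KO were above both labelled WT. The counts came from tags at the 3′ end, and the deleted part of the gene is not given in the sources used here, so these tags do not check the genotype, and KO and WT stand for the labels throughout. Young fresh WT replicate 1 stood apart from the other 11 libraries with no Xist count and 200 CPM of Y-linked transcripts. The other 11 had 198 to 745 CPM of Xist and at most 6.62 CPM of Y-linked transcripts. By these transcripts the young fresh WT group mixed male and female cells, and the part of sex in its values was not tested. Calls that rest on young fresh WT replicate 1 are given with and without it.

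The starts of these genes shared sequence features. The genes were taken by name, and how their list was drawn up is not given in the sources used here. The features may thus not be independent of the choice. RefSeq promoter windows of GRCm38.p6, from 250 bases before to 50 bases after the start, were at hand for 34 of the 40 members. They were searched on both strands for TTTGAA and TTTAAA, the core letters of the cell cycle homology region (CHR) that the DREAM and B-Myb complexes bind, and for CCAAT, the letters bound by NF-Y. The 34 members had 37 windows, and a gene was counted if any of its windows held the motif. TTTGAA was present in 26 of the 34 members (76.5%), against 14.3% of genes tested here and 20.2% of all 27025 genes with a window. CCAAT was present in 28 (82.4%), against 42.8% of genes tested and 41.1% of all genes with a window. A window with 2 or more copies was found for 20 members (58.8%), against 16.9% and 13.3%. Both TTTGAA and CCAAT were present in 24 members (70.6%), against 5.95% of genes tested and 7.97% of all genes with a window. TTTAAA was present in 8 members (23.5%), against 10.9% and 14.9%. The windows of Mad2l1, Nusap1 and Tacc3 held none of these motifs.

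Shown here are 6 windows of genes on which the results below turn, read 5′ to 3′ on the gene's own strand, with the letters of each CHR core and each CCAAT in capitals, as read on either strand. Top2a lies at chr11:99024140-99024439 (minus strand), Plk1 at chr7:122159185-122159484 (plus strand), Cenpa at chr5:30666636-30666935 (plus strand), Cdk1 at chr10:69352863-69353162 (minus strand), Ccnb2 at chr9:70421505-70421804 (minus strand) and Cks2 at chr13:51644982-51645281 (plus strand).
Top2a: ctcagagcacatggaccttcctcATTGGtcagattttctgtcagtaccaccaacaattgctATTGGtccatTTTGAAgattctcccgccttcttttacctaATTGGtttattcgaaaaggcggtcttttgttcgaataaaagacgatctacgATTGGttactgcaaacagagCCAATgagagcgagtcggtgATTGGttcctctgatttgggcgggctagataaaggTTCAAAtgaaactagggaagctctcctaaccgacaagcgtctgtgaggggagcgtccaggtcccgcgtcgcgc
Plk1: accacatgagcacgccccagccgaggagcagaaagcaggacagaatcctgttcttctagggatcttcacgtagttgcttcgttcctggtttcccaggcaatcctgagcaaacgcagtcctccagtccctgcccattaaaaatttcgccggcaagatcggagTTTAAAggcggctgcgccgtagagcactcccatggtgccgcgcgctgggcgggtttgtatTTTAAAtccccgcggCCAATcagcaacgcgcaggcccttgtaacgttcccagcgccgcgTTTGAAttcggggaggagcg
Cenpa: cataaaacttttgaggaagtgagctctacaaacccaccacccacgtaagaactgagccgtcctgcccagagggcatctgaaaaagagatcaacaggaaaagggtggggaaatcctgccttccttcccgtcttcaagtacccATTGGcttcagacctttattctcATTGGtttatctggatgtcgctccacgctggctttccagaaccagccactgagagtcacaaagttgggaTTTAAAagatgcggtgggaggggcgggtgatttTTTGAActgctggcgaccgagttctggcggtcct
Cdk1: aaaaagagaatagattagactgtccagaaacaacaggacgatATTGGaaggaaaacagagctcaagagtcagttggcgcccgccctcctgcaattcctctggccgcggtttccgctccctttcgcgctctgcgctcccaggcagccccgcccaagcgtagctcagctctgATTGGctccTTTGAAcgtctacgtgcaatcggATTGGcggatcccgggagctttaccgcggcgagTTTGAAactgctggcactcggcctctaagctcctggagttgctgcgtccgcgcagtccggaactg
Ccnb2: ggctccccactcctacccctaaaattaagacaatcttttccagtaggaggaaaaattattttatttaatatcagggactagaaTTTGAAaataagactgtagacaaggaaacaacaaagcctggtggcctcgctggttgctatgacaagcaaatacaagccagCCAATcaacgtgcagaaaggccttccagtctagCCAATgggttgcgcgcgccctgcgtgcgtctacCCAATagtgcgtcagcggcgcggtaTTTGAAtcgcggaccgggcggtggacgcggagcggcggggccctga
Cks2: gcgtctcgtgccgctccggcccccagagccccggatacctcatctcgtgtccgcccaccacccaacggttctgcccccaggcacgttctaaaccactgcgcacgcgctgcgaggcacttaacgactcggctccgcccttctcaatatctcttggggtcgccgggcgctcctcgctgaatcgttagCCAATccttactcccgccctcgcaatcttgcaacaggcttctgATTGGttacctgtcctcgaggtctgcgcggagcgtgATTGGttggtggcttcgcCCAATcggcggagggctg

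Top2a carried 6 CCAAT letters and 2 of TTTGAA. Ccnb2 carried 3 evenly spaced CCAAT before the start and TTTGAA just after it, with a second TTTGAA further upstream. Cdk1 had 2 of TTTGAA and 3 of CCAAT, and Cenpa 1 and 2. Plk1 held 1 CCAAT, 1 TTTGAA and 2 of TTTAAA. The window of Cks2 differed from those of the other 5, with 4 CCAAT letters and neither TTTGAA nor TTTAAA. A match of letters is a description and not a site shown to be bound.

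All 40 members were detected in the 4 stimulated libraries, and 37 to 40 in each fresh one. The module score, the mean of log2(CPM + 1) over the 40 genes, was 6.62 ± 0.051 in stimulated KO and 6.89 ± 0.068 in stimulated WT cells (SD, n = 2 each). It was 5.95 ± 0.54 in old KO, 5.41 ± 0.040 in old WT, 5.60 ± 0.032 in young fresh KO and 5.64 ± 0.16 in young fresh WT cells. The summed level of the 40 genes was 6202 ± 3.52 CPM in stimulated KO, 7600.1 ± 400.03 CPM in stimulated WT, 4422 ± 877 CPM in old KO, 3110.4 ± 71.9 CPM in old WT, 4086 ± 237 CPM in young fresh KO and 4095 ± 579 CPM in young fresh WT cells. Each stimulated library stood above each fresh one, although fresh old KO replicate 4, at 6.33, came within reach of them and its partner stood at 5.57. The transcripts were thus not absent from freshly sorted cells.

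**Figure D1:**
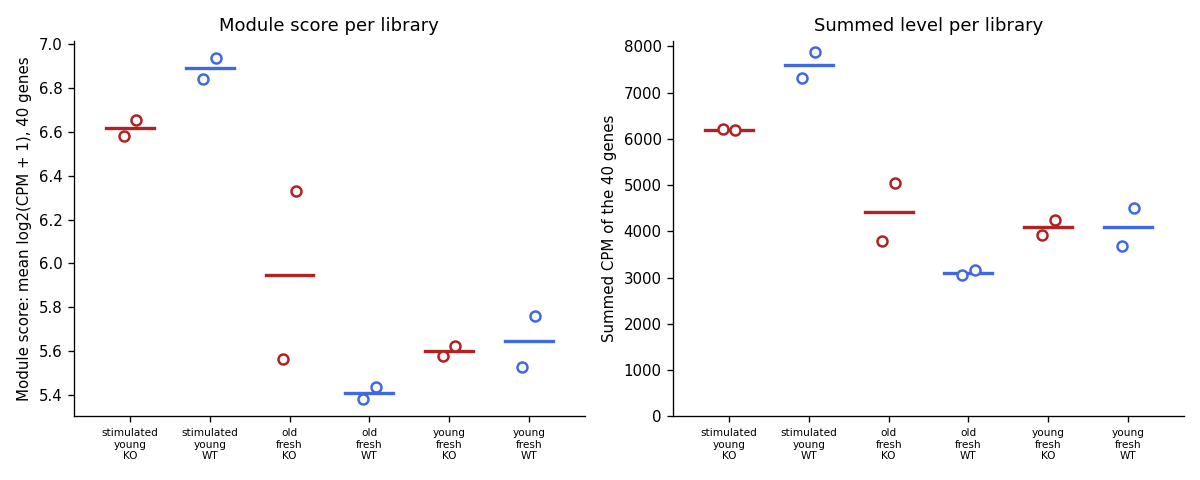
Module score (mean log2(CPM + 1) of the 40 genes, left) and their summed CPM (right) in each library; circles are libraries, bars group means, red KO and blue WT. The stimulated libraries score 6.58 to 6.94 and the fresh ones 5.38 to 6.33.

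Fresh libraries of a group disagreed gene by gene. The median gap between the 2 replicates of a group over the 40 members was 0.21 on the log2(CPM + 1) scale in stimulated KO and 0.13 in stimulated WT cells. It was 0.81 in old KO, 0.57 in old WT, 0.88 in young fresh KO and 0.85 in young fresh WT cells. A gap of more than 1 was seen for no member in either stimulated group and for 15 to 19 members in each fresh group. Bub1b, a checkpoint kinase relative that holds back the APC/C, had 0 and 25.2 CPM in old KO and 0 and 24.0 CPM in old WT, and 0 and 16.8 CPM in young fresh KO and 27.6 and 0 CPM in young fresh WT cells. It was absent from 1 library of each fresh group and present in the other. Kif2c, a kinesin that takes microtubules apart, was counted in 1 library of old KO, 0 of old WT and 1 of each young fresh group. Both were found in every stimulated library, Bub1b at 28.4 to 54.1 CPM and Kif2c at 15.8 to 19.9 CPM.

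**Figure D2:**
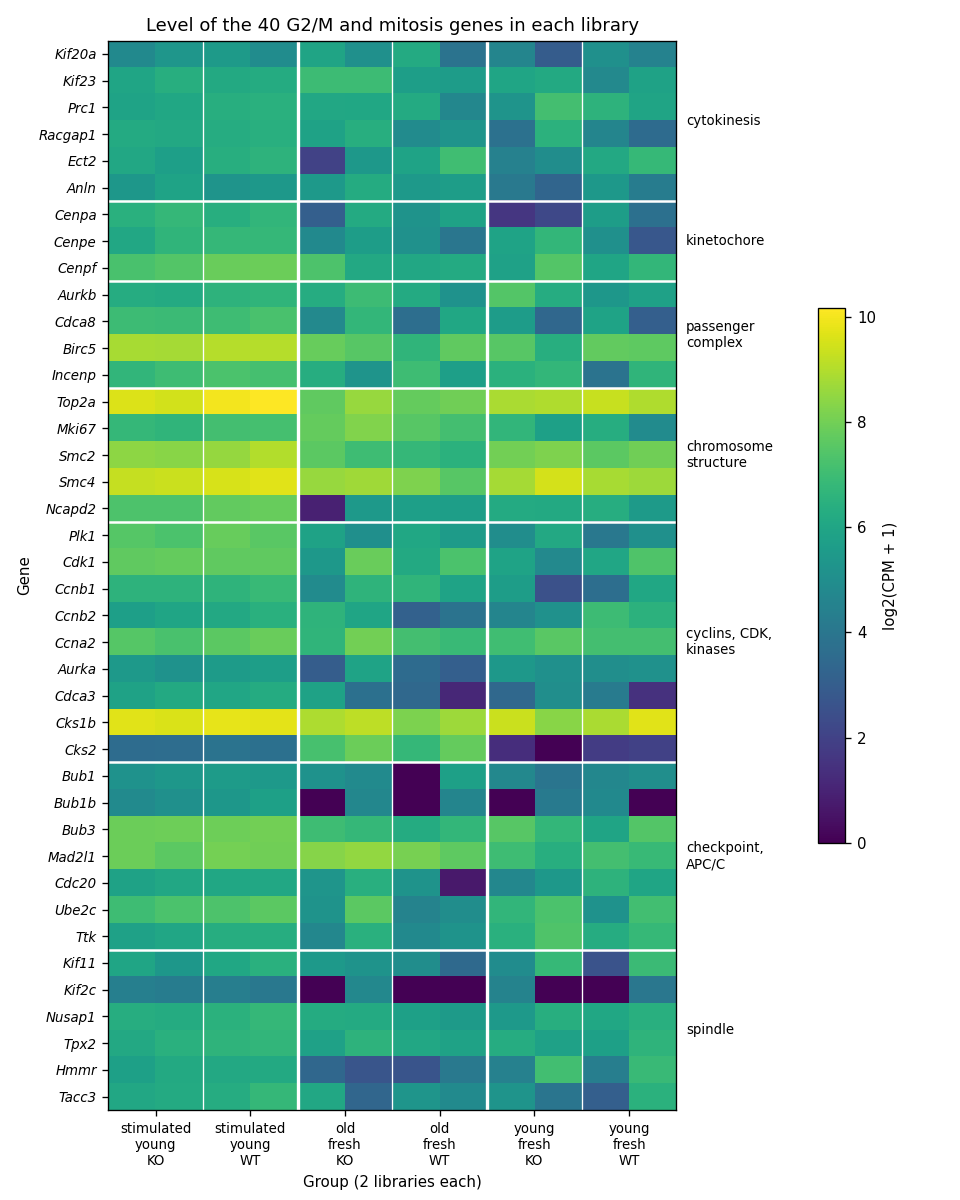
Level of each of the 40 genes, as log2(CPM + 1), in each library, with genes grouped by role and the 2 libraries of a group side by side. Stimulated columns look alike, while fresh columns of 1 group differ, with several genes at 0 in 1 library.

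After stimulation most of the members stood higher than in fresh cells, while few single genes passed the test across all genes. In KO cells 35 of the 40 members were higher in stimulated than in fresh cells, with a median log2 change of 0.74, beside 0.15 over the 10786 genes tested. In WT cells 36 were higher, with a median of 0.97, beside 0.080 over all genes. In KO cells 22 members had both stimulated libraries above both fresh ones and 2 had both below, beside 35.1% and 18.1% of all genes. In WT cells the numbers were 29 and 1, beside 33.4% and 20.2%. With an adjusted p under 0.05 (edgeR's quasi-likelihood test, Benjamini-Hochberg over all genes), 1 member rose in KO cells, Cenpa, where 0.649% of genes were called. In WT cells 1 member rose, Plk1, where 0.936% were called.

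Averaged over KO and WT, 7 members rose and none fell, where 4.12% of genes were called. They were Plk1 (2.41 ± 0.35 (SE), adjusted p = 0.0122), Birc5 (1.57 ± 0.24 (SE), adjusted p = 0.0142), Ncapd2 (1.47 ± 0.23 (SE), adjusted p = 0.0147), Cenpa (3.31 ± 0.52 (SE), adjusted p = 0.0156), Top2a (0.79 ± 0.13 (SE), adjusted p = 0.0169), Mad2l1 (1.02 ± 0.20 (SE), adjusted p = 0.0322) and Cdk1 (1.58 ± 0.35 (SE), adjusted p = 0.0462), all as log2 changes. In 15 members each of the 4 stimulated libraries stood above each of the 4 young fresh ones and in 0 below, beside 13.9% and 5.52% of all genes. This average was chosen after the separate comparisons had been seen. Without young fresh WT replicate 1 there were 8 calls, with Cdk1 no longer among them, and without a stimulated library there were 0 or 1.

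**Figure D3:**
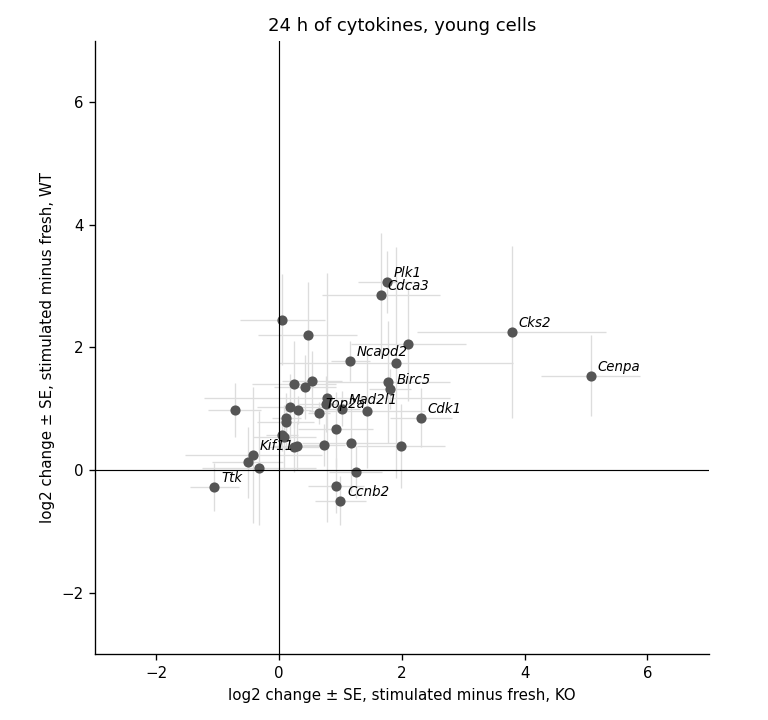
Log2 change ± SE of each of the 40 genes on stimulation, in KO (horizontal) and WT cells (vertical). Most genes lie above 0 on both axes, Plk1 passed the test in WT cells and Cenpa in KO cells, and Ttk lies below 0 on both.

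Of the genes that start mitosis, all 9 cyclins, kinases and adaptors were higher in stimulated KO cells and 8 of 9 in stimulated WT cells. Plk1, a kinase needed for mitotic entry and spindle building, had 180.2 and 155 CPM in stimulated KO and 224 and 191 CPM in stimulated WT cells, against 30.6 and 69.6 CPM in young fresh KO and 15.7 and 33.1 CPM in young fresh WT cells. The stimulated libraries all stood well above the young fresh ones, with no overlap. Its log2 change was 3.07 ± 0.50 (SE), adjusted p = 0.043 in WT and 1.76 ± 0.47 (SE), adjusted p = 0.141 in KO cells. Without young fresh WT replicate 1 the WT change was 2.65 (adjusted p = 0.107), and its last bases share 9.76% of their 50-base words with the pseudogene Plk-ps1.

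Cdk1, the kinase that drives mitosis, had 203 and 218 CPM in stimulated KO and 207 and 206 CPM in stimulated WT cells, against 58.7 and 26.7 CPM in young fresh KO and 63.3 and 163 CPM in young fresh WT cells. The libraries did not overlap, although 1 young fresh WT library came near, and the change was 2.31 ± 0.51 (SE), adjusted p = 0.0932 in KO and 0.85 ± 0.48 (SE), adjusted p = 0.442 in WT cells. Ccna2, its cyclin partner before mitosis, had 179 and 151 CPM in stimulated KO and 192 and 228 CPM in stimulated WT cells, against 132 and 191 CPM in young fresh KO and 139 and 139 CPM in young fresh WT cells. In WT cells alone the Ccna2 libraries did not overlap. Exosc9 on the other strand overlaps its last 500 bases, as Fgfr2 does those of Bub3.

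Ccnb1, the main mitotic cyclin, had 93.3 and 93.1 CPM in stimulated KO and 97.5 and 115 CPM in stimulated WT cells, against 50.01 and 4.71 CPM in young fresh KO and 11.9 and 65.7 CPM in young fresh WT cells. Its fresh replicates lay far apart, and 29.6% of the 50-base words of its last bases occur in other genes, mostly the pseudogene Ccnb1-ps. Ccnb2, a second mitotic cyclin, had 52.4 and 62.3 CPM in stimulated KO and 69.9 and 85.8 CPM in stimulated WT cells, against 23.5 and 34.6 CPM in young fresh KO and 125 and 91.4 CPM in young fresh WT cells. It ran opposite ways, above fresh in KO cells (1.00 ± 0.41) and below fresh in WT cells (-0.49 ± 0.40), and passed the test in neither (adjusted p = 0.243 in KO cells).

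Aurka, a kinase of the spindle poles, had 43.9 and 35.8 CPM in stimulated KO and 46.9 and 50.5 CPM in stimulated WT cells, against 42.4 and 33.5 CPM in young fresh KO and 32.0 and 34.3 CPM in young fresh WT cells. Its WT groups did not overlap and its KO groups did. Cks2, a small protein that binds CDKs, had 11.04 and 11.3 CPM in stimulated KO and 13.6 and 12.5 CPM in stimulated WT cells, against 1.53 and 0 CPM in young fresh KO and 2.51 and 2.86 CPM in young fresh WT cells. Its stimulated libraries held 74 counts in KO and 79 in WT, and the young fresh ones 3 in KO and 9 in WT. In KO cells the ratio was 14.4, with an exact 95% interval of 4.73 to 71.3 that covers counting error only. Cks1b and Cdca3 were higher in both genotypes, Cdca3 by 1.66 in KO and 2.85 in WT cells, and neither passed the test.

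The chromosomal passenger complex corrects faulty attachments of chromosomes to the spindle. Its survivin subunit Birc5 had 461 and 450.1 CPM in stimulated KO and 518 and 520.0 CPM in stimulated WT cells, against 181 and 81.1 CPM in young fresh KO and 213 and 197 CPM in young fresh WT cells. The stimulated libraries all lay far above the young fresh ones, with a change of 1.81 ± 0.34 (SE), adjusted p = 0.0666 in KO and 1.32 ± 0.33 (SE), adjusted p = 0.14 in WT cells. Aurkb, its kinase, had 77.8 and 73.5 CPM in stimulated KO and 93.8 and 99.0 CPM in stimulated WT cells, against 175 and 78.5 CPM in young fresh KO and 40.8 and 56.0 CPM in young fresh WT cells. It was lower in stimulated than in fresh KO cells (-0.73) and higher in stimulated than in fresh WT cells (0.98), with no call in either. Cdca8 (borealin) had 124 and 121 CPM in stimulated KO and 127 and 149.9 CPM in stimulated WT cells, against 48.0 and 9.42 CPM in young fresh KO and 58.3 and 7.43 CPM in young fresh WT cells.

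Among the spindle checkpoint and APC/C genes, Mad2l1, the checkpoint protein that holds Cdc20, had 234 and 195 CPM in stimulated KO and 265 and 248 CPM in stimulated WT cells, against 129.6 and 82.7 CPM in young fresh KO and 138 and 115 CPM in young fresh WT cells. Stimulated and young fresh libraries did not overlap in either genotype. Cdc20, the activator of the APC/C, had 57.7 and 67.6 CPM in stimulated KO and 65.9 and 66.7 CPM in stimulated WT cells, against 25.0 and 41.9 CPM in young fresh KO and 94.1 and 62.3 CPM in young fresh WT cells. Ube2c, the enzyme that starts its ubiquitin chains, had 129.7 and 156 CPM in stimulated KO and 159.7 and 194 CPM in stimulated WT cells, against 103 and 154 CPM in young fresh KO and 35.7 and 137 CPM in young fresh WT cells. Neither passed the test, and genes on the other strand (Elovl1 and Tnnc2) overlap the last 500 bases of both, which matters because the strand setting of the counting is not given in the sources used here. The checkpoint kinase Ttk had 55.7 and 64.6 CPM in stimulated KO and 80.2 and 79.6 CPM in stimulated WT cells, against 87.8 and 165 CPM in young fresh KO and 78.4 and 113 CPM in young fresh WT cells, a negative log2 change in both genotypes, of -1.05 ± 0.40 in KO and -0.27 ± 0.39 in WT cells, that did not pass the test.

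At the centromere, Cenpa, the histone H3 variant that marks it, had 85.8 and 108 CPM in stimulated KO and 81.5 and 104 CPM in stimulated WT cells, against 2.04 and 3.66 CPM in young fresh KO and 50.2 and 12.6 CPM in young fresh WT cells. The KO change was the largest of any member, at 5.08 ± 0.80 (SE), adjusted p = 0.0413, and rested on very low fresh KO levels, and the WT change was 1.54 ± 0.66. Without young fresh KO replicate 3 the KO change was 4.74 (adjusted p = 0.0572), and without either stimulated KO library the adjusted p was 0.294 or 0.31. Cenpf, a large kinetochore protein, had 152 and 175 CPM in stimulated KO and 227 and 234 CPM in stimulated WT cells, against 55.6 and 172 CPM in young fresh KO and 62.1 and 105 CPM in young fresh WT cells. In WT cells alone its groups did not overlap.

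Spindle genes had the smallest median change of any role on stimulation, over 6 of them 0.26 in KO and 0.39 in WT cells, and none was called. Kif11, the motor that pushes spindle poles apart, had 62.4 and 41.1 CPM in stimulated KO and 66.5 and 86.5 CPM in stimulated WT cells, against 29.6 and 110.5 CPM in young fresh KO and 5.02 and 123 CPM in young fresh WT cells. Hmmr, a spindle assembly factor, had 54.1 and 70.5 CPM in stimulated KO and 70.2 and 72.0 CPM in stimulated WT cells, against 21.4 and 137 CPM in young fresh KO and 19.4 and 119 CPM in young fresh WT cells. Both had 1 fresh library of each genotype above all stimulated ones. Tpx2, which activates Aurora A on the spindle, had 69.3 and 85.8 CPM in stimulated KO and 97.5 and 101 CPM in stimulated WT cells, against 77.6 and 55.5 CPM in young fresh KO and 53.3 and 98.3 CPM in young fresh WT cells. Nusap1, which bundles microtubules, had 79.2 and 75.2 CPM in stimulated KO and 89.2 and 109.6 CPM in stimulated WT cells, against 44.9 and 82.7 CPM in young fresh KO and 65.9 and 83.4 CPM in young fresh WT cells. Their levels overlapped between stimulated and fresh cells, except those of Nusap1 in WT cells.

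Cytokinesis genes had no call either. Kif23, a motor of the central spindle, had 61.5 and 81.1 CPM in stimulated KO and 70.9 and 76.3 CPM in stimulated WT cells, against 62.3 and 71.7 CPM in young fresh KO and 27.0 and 57.1 CPM in young fresh WT cells. Kif20a, a related motor, had 27.6 and 40.1 CPM in stimulated KO and 45.6 and 29.7 CPM in stimulated WT cells, against 23.5 and 6.81 CPM in young fresh KO and 33.2 and 21.7 CPM in young fresh WT cells. Prc1, which cross-links the central spindle, had 58.0 and 65.2 CPM in stimulated KO and 82.5 and 87.8 CPM in stimulated WT cells, against 37.3 and 141 CPM in young fresh KO and 94.1 and 60.0 CPM in young fresh WT cells. Kif20a and Prc1 are overlapped at their ends by Cdc23 and Rccd1 on the other strand. Stimulated and fresh libraries of Kif23 and Prc1 overlapped in KO cells, and those of Prc1 and Kif20a in WT cells.

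All 5 genes of chromosome structure were higher after stimulation in both genotypes. Top2a, the topoisomerase that untangles sister DNA, had 785 and 707 CPM in stimulated KO and 1014 and 1152 CPM in stimulated WT cells, against 468 and 493 CPM in young fresh KO and 628 and 490.1 CPM in young fresh WT cells. Smc2 and Smc4 form the core of the condensins, which compact chromosomes. Smc2 had 344 and 324 CPM in stimulated KO and 379 and 505 CPM in stimulated WT cells, against 257 and 291 CPM in young fresh KO and 195 and 249 CPM in young fresh WT cells. Smc4 had 623 and 646 CPM in stimulated KO and 746 and 830.0 CPM in stimulated WT cells, against 449 and 735 CPM in young fresh KO and 456 and 413 CPM in young fresh WT cells. For Smc4 the KO groups overlapped and the WT groups did not. The condensin I subunit Ncapd2 had 161 and 161 CPM in stimulated KO and 209 and 222 CPM in stimulated WT cells, against 73.5 and 72.2 CPM in young fresh KO and 79.0 and 45.1 CPM in young fresh WT cells, with no overlap in either genotype and a change of 1.78 ± 0.32 (SE), adjusted p = 0.0544 in WT cells. Mki67, which coats mitotic chromosomes and is the Ki-67 proliferation marker, had 109.6 and 99.0 CPM in stimulated KO and 138 and 144 CPM in stimulated WT cells, against 104 and 53.4 CPM in young fresh KO and 79.7 and 29.1 CPM in young fresh WT cells.

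Markers of other cells moved on stimulation beside these genes. Summed over the 6 genes of the lymphoid-primed progenitor list, the level was 183 to 296 CPM in stimulated KO and 784 to 1474 CPM in stimulated WT, against 37.2 to 48.0 CPM in young fresh KO and 32.0 to 83.4 CPM in young fresh WT cells. The neutrophil and myeloid progenitor list (8 genes) summed to 2283 to 3477 CPM in stimulated KO and 3878 to 4033 CPM in stimulated WT, against 4651 to 6203 CPM in young fresh KO and 4886 to 9223 CPM in young fresh WT cells. Averaged over genotypes, 4 of its genes rose and 3 fell. By group means in both genotypes, S100a8, S100a9 and Ngp were lower after stimulation. Mpo, Elane, Prtn3, Ctsg and Ms4a3 were higher. In WT cells the S100a8 mean was 802 CPM stimulated and 4219 CPM fresh, and the Mpo mean 978 and 49.2 CPM. In KO cells the S100a8 mean was 605 CPM stimulated and 2881 CPM fresh, and the Mpo mean 712 and 48.9 CPM. Of the lymphoid-primed genes 2 rose. All 10 genes of the long-term HSC list had a negative average change, of which Hlf fell (-1.04, adjusted p = 0.011), and their sum was 827 to 987 CPM in stimulated KO and 533 to 606 CPM in stimulated WT, against 1325 to 1392 CPM in young fresh KO and 1423 to 1738 CPM in young fresh WT cells.

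Lists of other mature cells were read in the same way. The mast cell and basophil list (5 genes), of which 3 rose on average, summed to 225 to 305 CPM in stimulated KO and 189 to 219.6 CPM in stimulated WT, against 236 to 249 CPM in young fresh KO and 211 to 284 CPM in young fresh WT cells. The 3 that rose, Ms4a2, Prss34 and Mcpt8, were at 0 in all young fresh libraries. Most of the sum in each of these libraries was Gata2. It had 163 and 269 CPM in stimulated KO and 135 and 111 CPM in stimulated WT cells. In young fresh cells it had 236 and 234 CPM in KO and 211 and 280 CPM in WT. The monocyte and macrophage list (5 genes, Irf8 rose) summed to 40.1 to 56.0 CPM in stimulated KO and 98.1 to 106 CPM in stimulated WT, against 0 to 5.76 CPM in young fresh KO and 11.996 to 40.1 CPM in young fresh WT cells. The T and NK cell list (5 genes, Nkg7 rose) summed to 113 to 148 CPM in stimulated KO and 147 to 231 CPM in stimulated WT, against 18.3 to 34.7 CPM in young fresh KO and 14.3 to 15.1 CPM in young fresh WT cells, with the defining gene Cd3e at 0 in all of them. The B cell list (6 genes, no call) summed to 22.1 to 31.5 CPM in stimulated KO and 48.9 to 196 CPM in stimulated WT, against 3.14 to 21.9 CPM in young fresh KO and 0.627 to 5.14 CPM in young fresh WT cells, with Cd79a at 0 in all of them. The part of a change in cell makeup in the results on stimulation was not tested.

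After stimulation most members were slightly lower in KO than in WT cells. Of the 40, 36 had a negative log2 change (KO minus WT) with a median of -0.28, while the median of the 10494 genes tested was -0.00019. Both KO libraries lay below both WT libraries for 30 members and above for 0, beside 22.6% and 19.5% of all genes. With total counts in place of TMM sizes, 27 lay below and 1 above, beside 18.4% and 22.9% of all genes. Only Top2a passed the test, where 1.23% of genes were called. A further 10 members had an unadjusted p under 0.05, all lower in KO cells, against 10.9% of genes tested at that level.

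**Figure D4:**
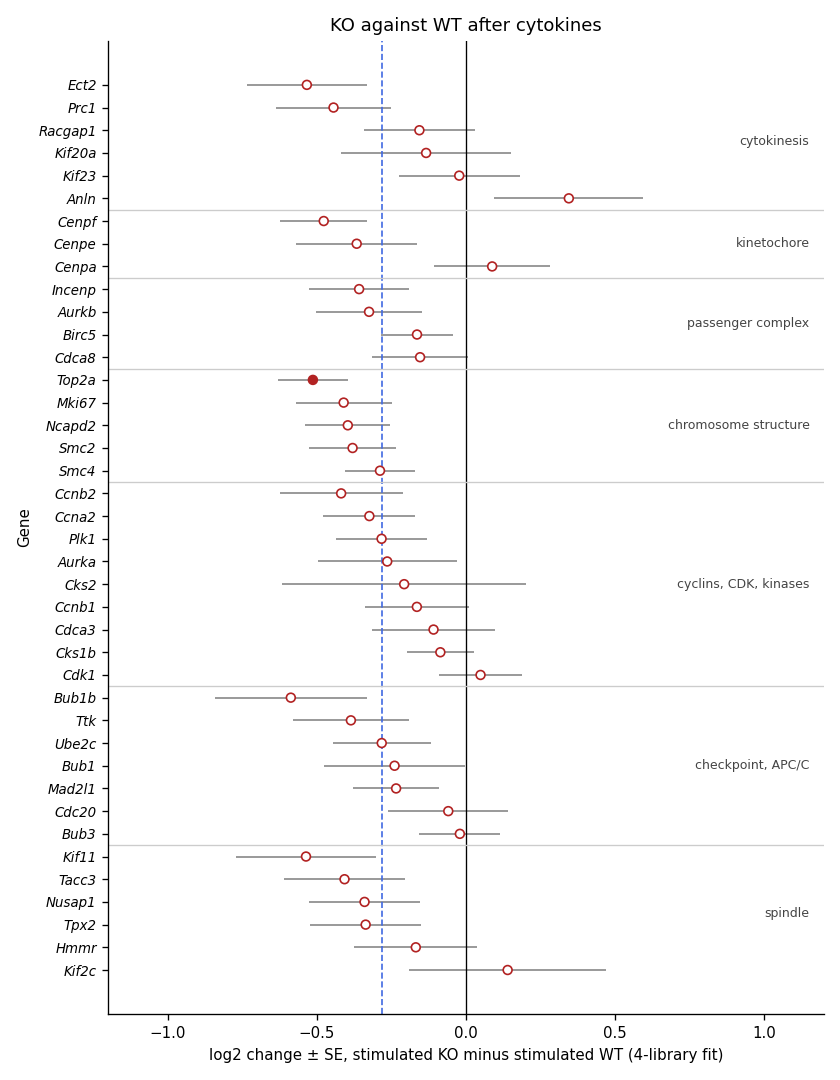
Log2 change ± SE between stimulated KO and stimulated WT cells for the 40 genes, ordered by role; the filled point passed the adjusted threshold and the dashed line is the median of the members. Of the 40 points, 36 lie left of 0.

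Top2a had 785 and 707 CPM in stimulated KO cells, against 1014 and 1152 CPM in stimulated WT cells, a log2 change of -0.51 ± 0.12 (SE), adjusted p = 0.0443. The libraries did not overlap. Without WT replicate 2 the adjusted p was 0.121, without KO replicate 3 it was 0.204, without KO replicate 4 it was 0.535, and over all 12 libraries it was 1. All 5 genes of chromosome structure lay below WT without overlap, with a median of -0.40. The 4 genes of the chromosomal passenger complex did so too, with a median of -0.245. Ncapd2 differed by -0.40 ± 0.14 (SE), adjusted p = 0.263, Smc2 by -0.38 ± 0.15 (SE), adjusted p = 0.309, Mki67 by -0.41 ± 0.16 (SE), adjusted p = 0.323 and Smc4 by -0.29 ± 0.12 (SE), adjusted p = 0.354, none of which passed.

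At the kinetochore, Cenpf had 152 and 175 CPM in stimulated KO cells, against 227 and 234 CPM in stimulated WT cells, a change of -0.48 ± 0.15 (SE), adjusted p = 0.173. The libraries did not overlap, and this was the second smallest p-value of the members. Cenpe, the kinesin that carries chromosomes to the spindle's middle, differed by -0.37 ± 0.20, also without overlap. Cenpa went the other way by 0.088 ± 0.19, well within the spread between replicates.

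In the checkpoint, Bub1b differed by -0.59 ± 0.25, Ttk by -0.39 ± 0.19, Ube2c by -0.28 ± 0.16, Bub1 by -0.24 ± 0.24 and Mad2l1 by -0.23 ± 0.14, each with both KO libraries below both WT libraries. Cdc20 and Bub3 were near 0, at -0.060 ± 0.20 and -0.021 ± 0.14. Of the passenger complex all 4 lay lower without overlap, Incenp by -0.36 ± 0.17, Aurkb by -0.33 ± 0.18, Birc5 by -0.16 ± 0.12 and Cdca8 by -0.15 ± 0.16. None of these passed the test.

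Cyclins and kinases were lower in KO cells in 8 of 9 cases, with a median of -0.21. Ccnb2 differed by -0.42 ± 0.21, Ccna2 by -0.32 ± 0.15, Plk1 by -0.28 ± 0.15, Aurka by -0.26 ± 0.23 and Ccnb1 by -0.17 ± 0.18. Cdk1 itself did not follow them, at 0.049 ± 0.14, and Cks1b and Cks2 were at -0.086 ± 0.11 and -0.21 ± 0.41.

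Spindle and cytokinesis genes varied more. Ect2, which activates RhoA for the contractile ring, had 67.9 and 53.0 CPM in stimulated KO cells, against 82.8 and 95.4 CPM in stimulated WT cells, a change of -0.53 ± 0.20 (SE), adjusted p = 0.288. Kif11 differed by -0.54 ± 0.23, Prc1 by -0.44 ± 0.19, Tacc3 by -0.41 ± 0.20, Nusap1 by -0.34 ± 0.19, Tpx2 by -0.34 ± 0.19 and Racgap1 by -0.16 ± 0.19, again with no overlap. Hmmr (-0.17 ± 0.21), Kif20a (-0.13 ± 0.29) and Kif23 (-0.023 ± 0.20) overlapped between genotypes, and Anln, a scaffold of the ring, was at 0.34 ± 0.25.

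Other lists moved along with the genotype in stimulated cells. Of the genes used in the sort, Kit had 260 and 330 CPM in stimulated KO cells, against 191 and 212 CPM in stimulated WT cells. Ly6a had 103 and 71.9 CPM in stimulated KO cells, against 58.6 and 39.3 CPM in stimulated WT cells. All 10 long-term HSC markers were higher in KO cells, with a median of 1.40 and 2 calls (Esam 1.59, adjusted p = 0.00386, and Mecom 1.16, adjusted p = 0.0314), and their summed level was 827 to 987 CPM in stimulated KO cells, against 533 to 606 CPM in stimulated WT cells. All 6 lymphoid-primed genes were lower, with a median of -2.10 and 4 calls, of which Dntt was lowest at -3.55 (adjusted p = 0.000285). All 5 megakaryocyte genes were higher, with a median of 1.39 and 2 calls (Pf4 and Vwf), and summed to 459 to 516 CPM in stimulated KO cells, against 146 to 257 CPM in stimulated WT cells. Of the B cell list 3 genes were tested and 2 fell (Ebf1 and Vpreb1), with sums of 22.1 to 31.5 CPM in stimulated KO cells, against 48.9 to 196 CPM in stimulated WT cells. All 4 monocyte genes tested were lower and Irf8 fell, with sums of 40.1 to 56.0 CPM in stimulated KO cells, against 98.1 to 106 CPM in stimulated WT cells. All 8 neutrophil and myeloid genes were lower, with a median of -0.49, no call and 4 at an unadjusted p under 0.05, and summed to 2283 to 3477 CPM in stimulated KO cells, against 3878 to 4033 CPM in stimulated WT cells. Of the 40 genes of the G1/S and replication list, 32 were lower in KO cells, with a median of -0.20 and no call. How far cell makeup or an earlier step of the cycle has a part in the lower mitotic levels was not tested.

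In fresh cells no member differed between KO and WT with an adjusted p under 0.05. In young fresh cells 0% of the 10680 genes were called, 519 genes had an unadjusted p under 0.05, and of the members Ccnb2 (-1.91 ± 0.87) and Cenpa (-3.45 ± 1.59) did so, both lower in KO cells. Of the members 21 were higher and 19 lower in young KO cells, with a median of 0.16, beside -0.035 over all genes. Both young KO libraries lay above both WT ones for 4 members and below for 8, beside 14.7% and 17.3% of all genes. Young fresh Ccnb2 stood at 23.5 and 34.6 CPM in KO, against 125 and 91.4 CPM in WT cells. DESeq2 likewise called none of the members here. Without young fresh WT replicate 1 the Ccnb2 difference was -1.66, and the score difference was -0.16 in place of -0.042.

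In old fresh cells 33 of 40 members were higher in KO cells, with a median of 0.51, beside 0 over all genes. Both old KO libraries were above both old WT ones for 15 members and below for 2, beside 16.5% and 16.7% of all genes. No gene was called (0% of 10680, with 428 genes and 3 members at an unadjusted p under 0.05). The smallest p was that of Ccnb2, at 95.7 and 61.9 CPM in old KO, against 7.97 and 13.5 CPM in old WT cells, a change of 2.88 ± 0.91 (SE), adjusted p = 1. DESeq2 alone called it (adjusted p = 0.00709).

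Next came Ube2c, at 36.4 and 193 CPM in old KO, against 22.3 and 30.9 CPM in old WT cells (2.12 ± 0.81), and Smc4, at 384 and 416 CPM in old KO, against 292 and 182 CPM in old WT cells (0.77 ± 0.35). Ube2c was high in old KO replicate 4 and close to WT in replicate 3. Kif2c had 124 counts in that same KO replicate and none in the other 3 old libraries, which over the groups makes KO at least 32.1-fold higher against 3 counts, from 1 library. The score difference between old KO and old WT was 0.54, 0.16 without KO replicate 4 and 0.92 without KO replicate 3, so its size rested on 1 library. In old KO cells the megakaryocyte list (5 genes) summed to 1443 to 2341 CPM, against 358 to 641 CPM in old WT cells, and of the 40 G1/S genes 34 were higher in KO cells, with no call in either list. The neutrophil and myeloid list summed to 1127 to 3106 CPM in old KO, against 424 to 1481 CPM in old WT cells, also with no call. The long-term HSC list was lower in KO cells, at 893 to 1019 CPM in old KO, against 1402 to 1716 CPM in old WT cells, again with no call. The part of these in the old KO and WT values was not tested.

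Age changed few of these genes, and 1 of them by far the most. Cks2 rose with age in both genotypes. It had 146 and 235 CPM in old KO and 109 and 219 CPM in old WT, against 1.53 and 0 CPM in young fresh KO and 2.51 and 2.86 CPM in young fresh WT cells. The log2 change was 7.87 ± 1.03 (SE), adjusted p = 0.000712 in KO and 5.89 ± 0.91 (SE), adjusted p = 0.0016 in WT cells. The 4 old libraries all held far more than any young library, stimulated ones included. Since the young fresh KO libraries held 3 counts together, the KO ratio is given from the counts, at 249 with an exact 95% interval of 85.1 to 1208 that covers counting error only. Leaving out young fresh WT replicate 1 gave 5.81 in WT cells, still called, and limma voom gave 5.68 (adjusted p = 0.0674). None of the 50-base words at the end of Cks2 occurs in another gene. Cks1b, the closest relative of Cks2 among the members, had no such difference, with 478 and 571 CPM in old KO and 287 and 413 CPM in old WT cells, against 651 and 329.8 CPM in young fresh KO and 467 and 828 CPM in young fresh WT cells.

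Cks2 was the only call in either genotype, where 0.871% of genes were called in KO and 0.805% in WT cells. In KO cells 10 members had both old libraries above both young ones and 8 below, beside 21.3% and 17.2% of all genes, and in WT cells 6 and 11, beside 20.1% and 18.8%. Members with a positive change numbered 24 in KO (median 0.18) and 15 in WT cells (median -0.28).

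Averaged over genotypes, a contrast added after the others had been seen, 4 members changed, where 2.72% of genes were called. Cks2 (6.88 ± 0.69 (SE), adjusted p = 5.35e-06), Mad2l1 (1.28 ± 0.30 (SE), adjusted p = 0.0221) and Mki67 (1.63 ± 0.40 (SE), adjusted p = 0.0299) rose, and Top2a (-0.99 ± 0.25 (SE), adjusted p = 0.0383) fell. Mki67 had 218 and 298 CPM in old KO and 184 and 138 CPM in old WT cells, against 104 and 53.4 CPM in young fresh KO and 79.7 and 29.1 CPM in young fresh WT cells. Mad2l1 had 315 and 368 CPM in old KO and 271 and 201 CPM in old WT cells, against 129.6 and 82.7 CPM in young fresh KO and 138 and 115 CPM in young fresh WT cells. Top2a had 205 and 392 CPM in old KO and 215 and 249 CPM in old WT cells, against 468 and 493 CPM in young fresh KO and 628 and 490.1 CPM in young fresh WT cells. For all of these the 4 old libraries lay on 1 side of the 4 young ones, and so they did for 4 members in all upwards and 3 downwards, beside 4.83% and 3.6% of all genes.

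**Figure D5:**
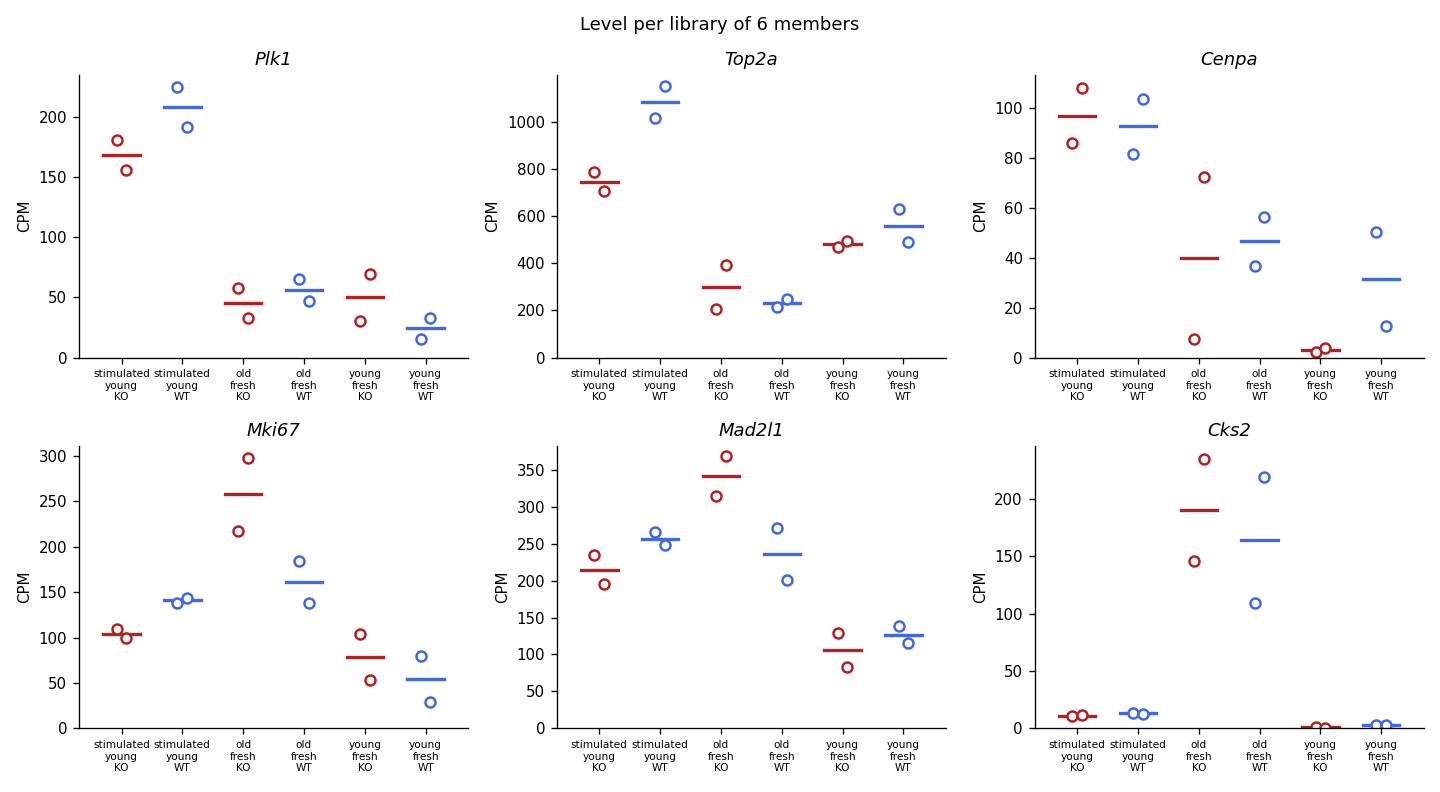
CPM of Plk1, Top2a, Cenpa, Mki67, Mad2l1 and Cks2 in each library (circles; bars are group means, red KO and blue WT). Cks2 lies between 109 and 235 CPM in the old libraries and at 13.6 CPM or less in all young ones, whereas Top2a is lowest in old cells.

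Without young fresh WT replicate 1, 4 members changed with age on average, of which 3 were the same, with Top2a at -0.89 and no longer among them. Without old KO replicate 4, neither Mad2l1 (1.23) nor Mki67 (1.52) passed. Summed over the neutrophil and myeloid list the level was 1127 to 3106 CPM in old KO and 424 to 1481 CPM in old WT, against 4651 to 6203 CPM in young fresh KO and 4886 to 9223 CPM in young fresh WT cells, and 3 of its 8 genes fell on average.

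Other lists moved with age as well. All 5 megakaryocyte genes had a positive average change and Pf4 rose, with sums of 1443 to 2341 CPM in old KO and 358 to 641 CPM in old WT, against 353 to 592 CPM in young fresh KO and 273 to 357 CPM in young fresh WT cells. The long-term HSC list, of which Hlf fell, summed to 893 to 1019 CPM in old KO and 1402 to 1716 CPM in old WT, against 1325 to 1392 CPM in young fresh KO and 1423 to 1738 CPM in young fresh WT cells. The erythroid list (8 genes, Car1 rose) summed to 432 to 761 CPM in old KO and 229 to 717 CPM in old WT, against 218 to 225 CPM in young fresh KO and 213 to 318 CPM in young fresh WT cells. The T and NK cell list, of which Klrb1c rose, summed to 43.8 to 123 CPM in old KO and 19.4 to 105 CPM in old WT, against 18.3 to 34.7 CPM in young fresh KO and 14.3 to 15.1 CPM in young fresh WT cells, with Cd3e at 0 in all of them. Depth moved with age too, since every old library was deeper than every young fresh one, and the part of any of these in the changes with age was not tested. At equal depth the score differed by 0.36 between old and young KO and by -0.30 between old and young WT cells, beside 0.34 and -0.24 at full depth. Without old KO replicate 4 the KO difference was -0.037 at full depth.

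Chromosome genes other than Mki67 were lower in old cells, with Smc2 at 193 and 129 CPM in old KO and 108 and 89.2 CPM in old WT cells, against 257 and 291 CPM in young fresh KO and 195 and 249 CPM in young fresh WT cells. Smc4 had 384 and 416 CPM in old KO and 292 and 182 CPM in old WT cells, against 449 and 735 CPM in young fresh KO and 456 and 413 CPM in young fresh WT cells. Smc2 had an average change of -0.98 ± 0.30 (SE), adjusted p = 0.106, and its old libraries all lay below the young ones. Old KO replicate 3, at 193 CPM, was only just below young fresh WT replicate 1, at 195 CPM. The cohesin subunits Smc1a and Smc3, outside the 40, fell on average by 1.64 and 2.03 on the log2 scale (adjusted p = 0.000693 and 0.000733). Among the spindle genes Hmmr had 9.50 and 5.38 CPM in old KO and 5.31 and 16.2 CPM in old WT cells, against 21.4 and 137 CPM in young fresh KO and 19.4 and 119 CPM in young fresh WT cells, an average change of -3.05 ± 0.93 (SE), adjusted p = 0.1. Ttk had 25.5 and 85.6 CPM in old KO and 27.1 and 36.6 CPM in old WT cells, against 87.8 and 165 CPM in young fresh KO and 78.4 and 113 CPM in young fresh WT cells, with no overlap in WT or KO cells taken alone.

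Of the cyclins and kinases, Ccnb2 gave an opposite order in the genotypes, as its old and young values above show, with a change with age of 1.44 ± 0.86 in KO and -3.35 ± 0.93 (SE), adjusted p = 0.12 in WT cells. Plk1 had 57.7 and 32.9 CPM in old KO and 65.1 and 47.1 CPM in old WT cells, below all stimulated libraries. Cdk1 had 41.9 and 231 CPM in old KO and 71.7 and 157 CPM in old WT cells. Ccna2 had 99.0 and 259 CPM in old KO and 141 and 118 CPM in old WT cells, and Ccnb1 had 29.2 and 97.4 CPM in old KO and 100.4 and 58.5 CPM in old WT cells. Each of these had a wide gap between old KO replicates. Aurka had 6.95 and 58.5 CPM in old KO and 10.6 and 7.51 CPM in old WT cells, with the second old KO library far above the other 3.

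The remaining core members had these levels in old cells. Birc5 had 223 and 182 CPM in old KO and 98.6 and 204 CPM in old WT cells. Aurkb had 78.6 and 123 CPM in old KO and 72.8 and 35.7 CPM in old WT cells. Cdc20 had 38.7 and 85.4 CPM in old KO and 36.1 and 0.600 CPM in old WT cells. For Cdc20, old WT replicate 2 held only 2 counts. Cenpf had 159 and 70.3 CPM in old KO and 67.0 and 73.6 CPM in old WT cells. Kif11 had 42.6 and 36.4 CPM in old KO and 30.3 and 10.2 CPM in old WT cells. Tpx2 had 54.9 and 93.5 CPM in old KO and 67.0 and 56.4 CPM in old WT cells, and Nusap1 had 76.5 and 74.3 CPM in old KO and 53.4 and 45.9 CPM in old WT cells. In Kif11 and Nusap1 both old KO libraries were above both old WT ones. Kif23 had 126 and 123 CPM in old KO and 50.5 and 48.0 CPM in old WT cells. Kif20a had 60.7 and 33.7 CPM in old KO and 73.3 and 13.8 CPM in old WT cells, and Prc1 had 67.7 and 65.2 CPM in old KO and 73.9 and 24.9 CPM in old WT cells. Kif23 was high in both old KO libraries, and Kif20a and Prc1 ranged widely between old WT replicates.

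No member's change on stimulation or with age was shown to differ between KO and WT cells. For stimulation 0% of genes were called in the interaction by edgeR, with 1031 genes and 4 members at an unadjusted p under 0.05, and DESeq2 called no member either. The smallest p of the members was that of Cenpa (3.54 ± 1.00 (SE), adjusted p = 0.406). The interaction was positive for 16 members and negative for 24, with a median of -0.34, beside 0.076 over all genes. All 5 chromosome structure genes had a smaller change in KO than in WT cells, with a median interaction of -0.68. Of the 9 cyclins, kinases and adaptors 5 had a positive interaction, with a median of 0.32. For age the interaction was positive for 32 members and negative for 8, with a median of 0.71, beside 0.086 over all genes. Here 0% of genes were called, with 587 genes and 1 member at an unadjusted p under 0.05. That member was Ccnb2 (4.79 ± 1.26 (SE), adjusted p = 0.786), which DESeq2 called (adjusted p = 0.000677). Its value over the other alternatives stayed between 4.42 and 5.20 with adjusted p from 0.0867 to 0.888.

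The regulators and neighbours of these genes were read from lists of the wider pathway. The G2/M transcription list (15 genes of the MuvB and DREAM complexes, B-Myb, FoxM1 and NF-Y) had no call on stimulation, in KO against WT or, within a genotype, with age, and with age averaged over genotypes only Rbbp4, a histone-binding subunit, rose (0.78, adjusted p = 0.0382). Foxm1, the forkhead factor of late-cycle genes, had 36.2 and 26.2 CPM in stimulated KO and 42.3 and 36.6 CPM in stimulated WT, against 3.06 and 119.9 CPM in young fresh KO and 45.8 and 43.4 CPM in young fresh WT cells. Mybl2, which encodes B-Myb, had 6.07 and 10.6 CPM in stimulated KO and 5.99 and 7.92 CPM in stimulated WT, against 0 and 0.524 CPM in young fresh KO and 0 CPM in both young fresh WT libraries. Its change averaged over genotypes had an adjusted p of 0.0563. E2f1, an activator of replication genes, had 40.3 and 53.3 CPM in stimulated KO cells, against 0 CPM in both young fresh KO libraries, and passed the test (adjusted p = 0.037). In stimulated WT it had 36.3 and 41.9 CPM, against 44.5 and 17.1 CPM in young fresh WT cells, with no call.

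Of the 40 genes of the G1/S and replication list, 6 rose on stimulation averaged over genotypes, among them Dut (0.94, adjusted p = 0.0178) and Lig1 (0.66, adjusted p = 0.027), and 32 were positive with a median of 0.61. Of the 29 further kinetochore genes Cenpw rose (0.94, adjusted p = 0.0347) and Cenpk fell (-1.56, adjusted p = 0.0255). Of 29 other spindle and cytokinesis genes tested, Kif22, a chromosome-bound kinesin, rose (2.26, adjusted p = 0.0406). A list of CDK inhibitors and exit genes also held G1 cyclins and CDKs, and 17 of its genes were tested. Of these the kinase Cdk6 rose (1.13, adjusted p = 0.0124) and the cyclin Ccnd2 fell (-0.78, adjusted p = 0.0303). No gene passed in the lists of entry control (13 genes), APC/C (17 tested) and condensin and cohesin (16). In stimulated KO against WT cells none of these 8 lists had a call, the other spindle list leaned lower (25 of 30, median -0.22) and so did the kinetochore list (20 of 29, median -0.13).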

How the data were processed

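The 12 libraries were made from total RNA (RNeasy Plus Micro) with the QuantSeq 3′ FWD kit, per the labels' protocols. The deposited files hold the authors' raw counts per gene symbol, 35976 in each. The submitters' processing notes name HISAT2 2.2.1, HTSeq 0.9.1, DESeq2 1.34.0 and the mm10 build, and the annotation and strand setting are not given in the sources used here. CPM was computed from the deposited counts with TMM library sizes. The quasi-likelihood test of edgeR 4.0.16 (R 4.3.3) was fitted over all genes kept by filterByExpr (minimum count 10, minimum total 15), with group as the only term. Stimulation and its interaction used the 8 young libraries (10786 genes, 4 residual degrees of freedom), KO against WT after stimulation the 4 stimulated libraries (10494 genes, 2 degrees of freedom), and age and fresh KO against WT the 8 fresh libraries (10680 genes, 4 degrees of freedom). Separate fits were used because the dispersion was 0.033 in the 4 stimulated and 1.07 in the 8 fresh libraries. The fit of the 8 young libraries, at 0.44, pooled stimulated and fresh cells. Tests of stimulation and of its interaction thus rest on a spread shared by groups of unlike spread. P-values were adjusted by Benjamini-Hochberg over all genes, with a threshold of 0.05, and the scripts were tested on simulated counts.

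The alternatives were RLE scaling, no filter, DESeq2 1.42.0, limma 3.58.1 (voom with a weight per group), all 12 libraries in 1 fit, a replicate block, the 4 libraries compared alone, each library left out, and, for the score, a pseudocount of 5 in place of 1 CPM and equal depth (1600155 counts). Averages over genotypes, and counts of members whose libraries do not overlap, were added after seeing the data. The members and the lists were chosen with earlier results of these data known. Values in each library are given for a core of 24 members, for members that passed, for the 5 smallest p-values after stimulation and for the smallest in each fresh contrast and interaction. Of the other lists, genes with the smallest adjusted p, up to 3 a list, were named, as were Foxm1, Mybl2 and E2f1. Promoters came from RefSeq (GRCm38.p6), and ends of genes from GENCODE M21.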

Additional observations from a re-analysis of the deposited data

How the results depend on the processing

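Score differences, which have no test, changed sign in 2 comparisons on leaving out 1 library: between young fresh KO and WT cells the range was -0.16 to 0.074, beside -0.042, and between old and young KO cells -0.037 (without old KO replicate 4) to 0.73, beside 0.34. Of the values for single genes, 229 kept their side of the threshold, 55 lost it and 3 gained it. The counts of members called depended on the setting, as did the counts over all genes tested, given in brackets. On stimulation, KO cells gave 3 without a filter (161), 7 with DESeq2 (909), 0 with all 12 libraries (75), 0 with the 4 libraries alone (0) and 0 to 3 on leaving out 1 library. WT cells gave 3 without a filter (157), 7 with DESeq2 (717), 2 with voom (260), 0 with the 4 libraries alone (0) and 0 in each fit that left out 1 library. The average over genotypes gave 11 with DESeq2 (1541) and 0 to 12 on leaving out 1 library. KO against WT after stimulation gave 0 with all 12 libraries (0) and 0 to 2 on leaving out 1 library. KO against WT in old cells gave 1 with DESeq2 (105), as did the interaction by age (104). For age, KO cells gave 2 without a filter (201), 5 with DESeq2 (556), 2 with all 12 libraries (210) and 1 to 2 on leaving out 1 library, and WT cells gave 2 without a filter (182), 4 with DESeq2 (508), 3 with all 12 libraries (205), 0 with voom (69) and 1 to 2 on leaving out 1 library. The average gave 8 with DESeq2 (917), 7 with all 12 libraries (577) and 3 to 6 on leaving out 1 library. The cause of these differences was not tested. With a pseudocount of 5 CPM the score was higher by 0.84 in stimulated than in fresh KO cells and by 1.08 in WT cells, and by 0.96 in KO cells with RLE scaling.

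Libraries of like number did not deviate together (r from -0.014 to 0.012 over 11548 genes). Fresh replicates spread widely, so these values cannot decide whether a like number marks a shared animal or batch. With a replicate block, stimulation gave 4 calls in KO (235 over all genes), 6 in WT (217) and 15 on average (614, with the median of all genes higher by 0.32), age gave 2 in KO (189), 2 in WT (184) and 4 on average (438), and the interactions 0. KO and WT libraries shared no number. Each group had 2 libraries, and fresh replicates differed by more than 1 on the log2 scale in 15 to 19 members.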
